A study of Homo sapiens with 14 samples.

Results

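The effect of a C-terminal FLAG tag on where the A442M mutant of GATA3 was found on chromatin was described from 4 ChIP-seq peak lists, 2 from A442M-FLAG cells and 2 from untagged A442M cells. These are 4 of the 12 lists analysed, and the labels describe 14 samples in all. The libraries were chosen by their labelled genotype and tag, and no measured value entered the choice. Peaks from the 4 lists that overlapped by at least 1 bp were joined into a region, and a library with a peak in a region is said to call it. The cells of all 4 libraries were MDA-MB-231, a triple-negative breast cancer line, left untreated and harvested on day 3. The A442M-FLAG cells carried GATA3 with methionine in place of alanine and FLAG at the C-terminus. The untagged A442M cells carried the same mutant without FLAG. The other lists came from WT-FLAG and untagged WT cells and from G444E-FLAG and untagged G444E cells, with 2 libraries in each group. Cells with an empty vector (2 samples) were not analysed here, and no list shows what the antibody retrieves without the introduced GATA3. Tagged and untagged GATA3 were both pulled down with an antibody against GATA3, not against FLAG. The promoter that drives GATA3, the copy number and whether a line is a clone or a pool are not stated in the labels. Peak lists show neither the mutation nor the tag, so the labels could not be checked against the data. Nothing in the labels says that replicates were separate cultures, so p-values measure only the spread between these libraries, which may be technical.

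GATA3 is a zinc-finger transcription factor that binds GATA motifs through its zinc fingers and is known for its part in luminal breast epithelium and in T cells. The A442M substitution lies near the C-terminal end of the protein, the end to which FLAG, a short peptide epitope, was attached. The series' design text states that the tag stabilises GATA3 protein whatever the mutation. MDA-MB-231 is a basal-like, mesenchymal line, and luminal genes are mostly low in it.

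The clearest cases at gene starts are shown first, as windows that run from 250 bases before to 50 bases after an annotated start. The sequences are RefSeq's (GRCh38.p14), printed 5′ to 3′ on the gene's strand, with 4 GATA motifs in capitals. The motifs are AGATAA and its variants with another last base (AGATAG), another first base (TGATAA) or both (TGATAG), searched on both strands. GATA factors are known to bind such 6-base words, and matches can overlap in part. TNFRSF19, a receptor of the tumour necrosis factor receptor family, was the named region whose start window could be shown. Its window (chr13:23570162-23570461, + strand) lay inside a region of 1204 bp that all 4 libraries called. The region ranked at percentiles 91.2 and 93.3 in the A442M-FLAG lists, against 16.2 and 15.8 in the untagged A442M lists, where a percentile is the rank of the authors' score within a list, here with all lists cut to the same length.
TNFRSF19: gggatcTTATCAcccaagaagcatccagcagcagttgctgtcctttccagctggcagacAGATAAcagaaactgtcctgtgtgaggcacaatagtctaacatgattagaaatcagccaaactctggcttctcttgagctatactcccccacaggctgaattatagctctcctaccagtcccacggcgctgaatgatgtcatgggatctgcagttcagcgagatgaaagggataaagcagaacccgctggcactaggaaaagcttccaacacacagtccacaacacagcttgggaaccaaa

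The 3 highest ranked start windows among regions called only with the tag were picked after their values were seen. CTPS1, which encodes a CTP synthetase, has its window at chr1:40988269-40988568 (+ strand). PLAC9 has its window at chr10:80131411-80131710 (+ strand) and ASNSD1 at chr2:189661209-189661508 (+ strand). In the full A442M-FLAG lists the CTPS1 region ranked at percentiles 83.2 and 83.9 and the PLAC9 region at 74.4 and 64.9. The ASNSD1 region ranked at 67.8 and 61.6, and none of these regions was called in either untagged A442M list. The CTPS1 region was called in 3 libraries of the other genotypes, all tagged. The PLAC9 region was called in 4, with untagged G444E replicate 2 among them. The ASNSD1 region was called in 3, with untagged G444E replicate 1 among them.
CTPS1: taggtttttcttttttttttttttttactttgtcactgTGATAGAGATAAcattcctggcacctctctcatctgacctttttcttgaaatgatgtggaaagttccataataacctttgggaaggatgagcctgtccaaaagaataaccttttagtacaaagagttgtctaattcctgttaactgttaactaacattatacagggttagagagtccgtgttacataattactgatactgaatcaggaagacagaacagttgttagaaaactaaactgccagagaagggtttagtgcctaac
PLAC9: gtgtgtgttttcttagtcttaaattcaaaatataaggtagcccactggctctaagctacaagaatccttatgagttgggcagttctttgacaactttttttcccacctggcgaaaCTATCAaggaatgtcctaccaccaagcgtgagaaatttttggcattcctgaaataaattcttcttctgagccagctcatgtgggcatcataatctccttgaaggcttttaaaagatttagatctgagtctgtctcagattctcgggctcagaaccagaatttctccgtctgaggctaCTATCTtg
ASNSD1: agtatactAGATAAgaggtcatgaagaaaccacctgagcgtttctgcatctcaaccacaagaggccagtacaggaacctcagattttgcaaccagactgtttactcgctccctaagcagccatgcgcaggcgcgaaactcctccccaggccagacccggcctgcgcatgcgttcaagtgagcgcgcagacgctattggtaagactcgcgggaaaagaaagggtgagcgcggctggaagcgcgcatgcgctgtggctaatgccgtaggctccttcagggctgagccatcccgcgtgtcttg

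The 3 highest ranked start windows among regions called only without the tag were picked in the same way. NIF3L1 has its window at chr2:200889170-200889469 (+ strand). PIK3R1, which encodes a regulatory subunit of phosphoinositide 3-kinase, has its window at chr5:68288269-68288568 (+ strand). DDX41, which encodes an RNA helicase of the DEAD-box family, has its window at chr5:177516912-177517211 (- strand). In the full untagged A442M lists the NIF3L1 region ranked at percentiles 94.5 and 89.2 and the PIK3R1 region at 85.5 and 84.9. The DDX41 region ranked at 77.5 and 78.5, and none of these regions was called in either A442M-FLAG list. That absence holds for A442M only. The NIF3L1 region was called in all 8 libraries of the other genotypes, the PIK3R1 region in 5 and the DDX41 region in 4. WT-FLAG replicate 1 and G444E-FLAG replicate 1 called each of these regions.
NIF3L1: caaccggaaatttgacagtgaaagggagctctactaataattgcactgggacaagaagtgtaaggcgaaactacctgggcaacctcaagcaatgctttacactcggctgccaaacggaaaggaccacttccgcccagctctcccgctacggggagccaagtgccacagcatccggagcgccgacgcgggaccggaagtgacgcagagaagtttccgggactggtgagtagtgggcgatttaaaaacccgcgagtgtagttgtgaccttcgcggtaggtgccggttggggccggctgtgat
PIK3R1: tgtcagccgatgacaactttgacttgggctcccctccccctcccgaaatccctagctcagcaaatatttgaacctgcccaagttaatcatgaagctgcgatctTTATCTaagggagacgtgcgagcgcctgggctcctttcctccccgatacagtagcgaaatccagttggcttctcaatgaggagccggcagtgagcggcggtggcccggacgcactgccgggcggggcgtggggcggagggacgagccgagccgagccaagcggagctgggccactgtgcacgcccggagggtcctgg
DDX41: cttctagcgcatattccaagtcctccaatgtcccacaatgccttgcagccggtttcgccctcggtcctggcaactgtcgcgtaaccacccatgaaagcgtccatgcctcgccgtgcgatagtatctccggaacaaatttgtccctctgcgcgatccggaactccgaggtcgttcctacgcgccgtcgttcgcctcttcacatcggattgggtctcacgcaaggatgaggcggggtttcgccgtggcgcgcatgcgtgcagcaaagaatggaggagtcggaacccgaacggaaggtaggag

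The windows are shown because they are the places where a difference between tagged and untagged A442M fell on an annotated start, and most differences did not. A motif match is a description of these letters, not a binding site, and the windows of NIF3L1 and DDX41 hold none of the 4 motifs. A window is not the called region. Of 300 bases, 110 lay in the region at NIF3L1, 225 at DDX41, 149 at ASNSD1 and 275 at PLAC9. Motifs in the regions outside the windows were not searched. Over all start windows, 31.3% of the 163 that overlapped a region called only with the tag held a motif, against 35.4% of the 130 that overlapped a region called only without it. The share was 41.3% of the 707 windows in regions of all 4 libraries, 24.7% of windows in no region and 25% of all 34943 windows. With lists cut to equal length the order of the first pair turned, to 45.6% of 68 windows called only with the tag and 31.4% of 226 called only without it.

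The untagged A442M libraries stood apart from the tagged ones in a measure that untagged WT shared. Peaks on contigs outside chromosomes 1 to 22, X and Y numbered 21 and 16 in the A442M-FLAG lists, against 75 and 57 in the untagged A442M lists. That is 0.0406% and 0.0372% of peaks with the tag, against 0.189% and 0.158% without it (exact permutation test, two-sided, p = 0.333, the smallest that 2 against 2 libraries can give). The untagged WT lists were higher still, with 110 and 84 such peaks, and the other 6 lists held 16 to 25. The labels name no batch. A processing difference shared by the untagged A442M and untagged WT libraries cannot be told apart from the absence of the tag. Read depth is unknown, because the lists hold no read numbers, and counting error was not estimated.

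The tagged mutant had longer lists. A442M-FLAG replicates 1 and 2 had 51694 and 42993 peaks, against 39700 and 36078 in untagged A442M replicates 1 and 2. Every A442M-FLAG list was longer than either untagged list, a 1.25-fold ratio of the geometric means. On the log2 scale the mean was 15.52 ± 0.19 with the tag and 15.21 ± 0.10 without it (SD, n = 2 each), a difference of 0.32 (exact permutation test, two-sided, p = 0.333). The difference was 0.38 between the libraries numbered 1 and 0.25 between those numbered 2. The genome covered by peaks was 21.9 and 22.7 Mb in A442M-FLAG, against 16.4 and 16.6 Mb in untagged A442M, a 1.35-fold ratio (exact permutation test, p = 0.333).

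Peak width went with the replicate number more than with the tag. The median width was 353 and 436 bp in A442M-FLAG replicates 1 and 2, against 354 and 391 bp in untagged A442M replicates 1 and 2. The groups overlapped, and the difference of the means, 22 bp, was smaller than the SD of 58.7 bp between the A442M-FLAG libraries (exact permutation test, p = 1). Without A442M-FLAG replicate 2 the difference was -19.5 bp. With lists of equal length it was 53.0 bp (exact permutation test, p = 0.333).

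**Figure D1:**
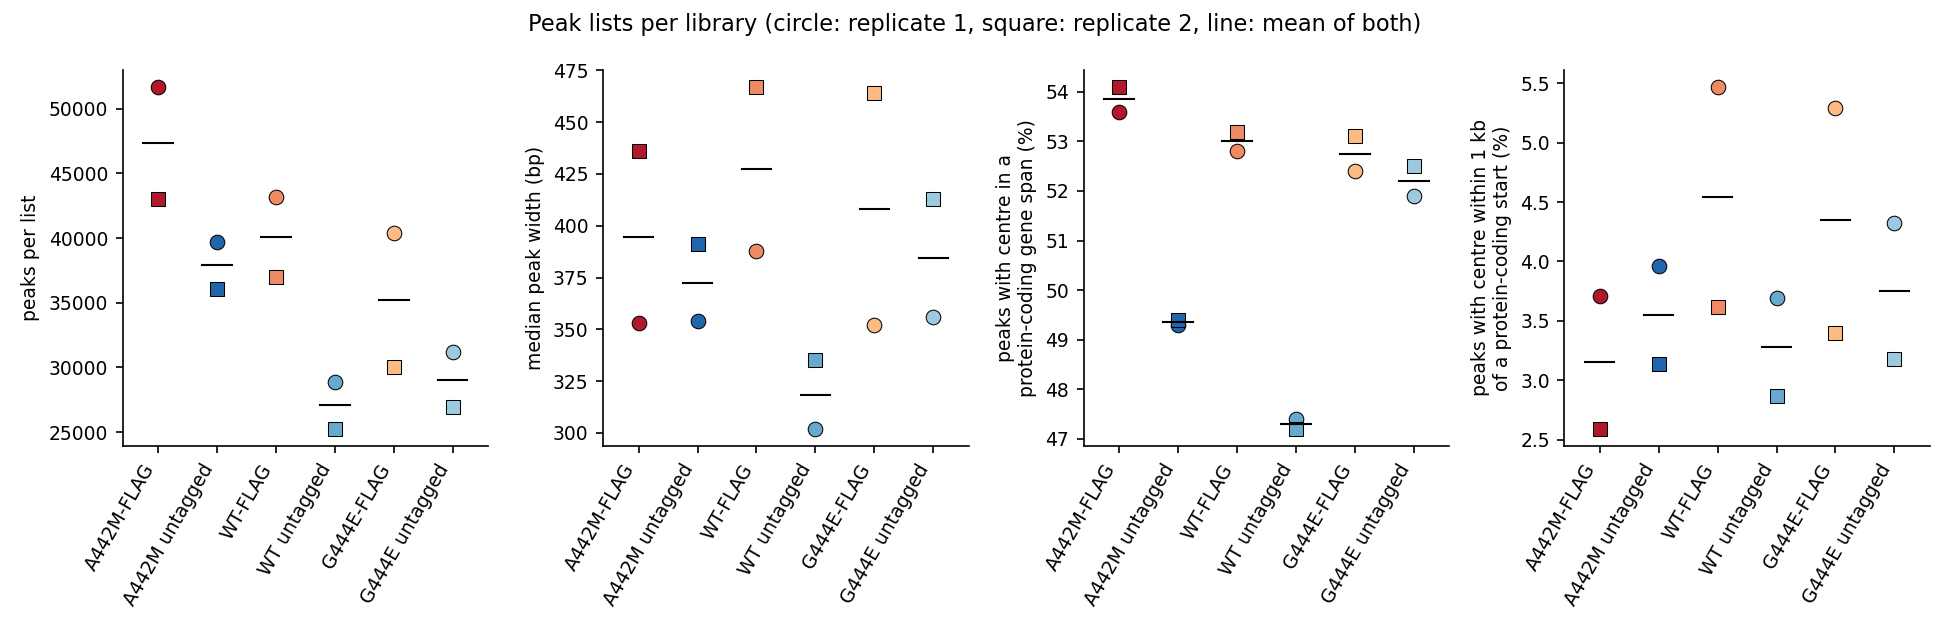
Each point is 1 library (circle, replicate 1; square, replicate 2; line, mean of both): peaks per list, median peak width in bp, percent of peaks centred in a protein-coding gene span and percent centred within 1 kb of a protein-coding start, for A442M-FLAG, untagged A442M and the other 4 groups. A442M-FLAG lists (51694 and 42993 peaks) lie above untagged A442M lists (39700 and 36078), and the gene-span share of untagged A442M and untagged WT is below that of the other groups; axes do not start at 0.

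The tag effect on list length was not shown to be particular to A442M. The log2 ratio of tagged over untagged was 0.32 in A442M, 0.57 in WT and 0.26 in G444E. The A442M effect differed from the mean of the other genotypes by -0.10 (exact permutation test of the difference, two-sided, over 216 arrangements, p = 0.657). For median width the difference between genotypes was -44.2 bp (exact permutation test, p = 0.463), and for the share of peaks at starts it was -1.33 percentage points (p = 0.213, or 0.639 after Benjamini-Hochberg adjustment over the 3 measures). With labels exchanged only between libraries of the same number, the p for starts was 0.0625 over 64 arrangements (exact permutation test).

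Merging the 170465 peaks of the 4 A442M lists gave 69021 regions. All 4 libraries called 21042 of them, which is 30.5%. Both A442M-FLAG libraries and neither untagged library called 8587 regions, 12.4% of the total. The opposite pattern, both untagged A442M libraries and neither tagged one, held for 3250 regions, 4.71% of the total. A further 21514 regions, 31.2%, were called by 1 library alone, and A442M-FLAG replicate 1 had 9223 of these. Calls with the tag only were therefore more frequent than calls without it only, in lists that were also longer.

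The asymmetry was smaller with lists of equal length. When each list was cut by score to 36078 peaks, the length of the shortest, merging gave 57663 regions. Regions called only with the tag numbered 5505 (9.55%), and those called only without it 4639 (8.05%). Leaving out a library, so that 1 call stands for its group, gave 13430 tag-only regions without A442M-FLAG replicate 1 and 18161 without A442M-FLAG replicate 2. Untagged-only regions were 5867 without A442M-FLAG replicate 1, 6515 without untagged A442M replicate 1 and 7560 without untagged A442M replicate 2. Tag-only regions stayed the more numerous in each of the 4 cases of leaving out a library.

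**Figure D2:**
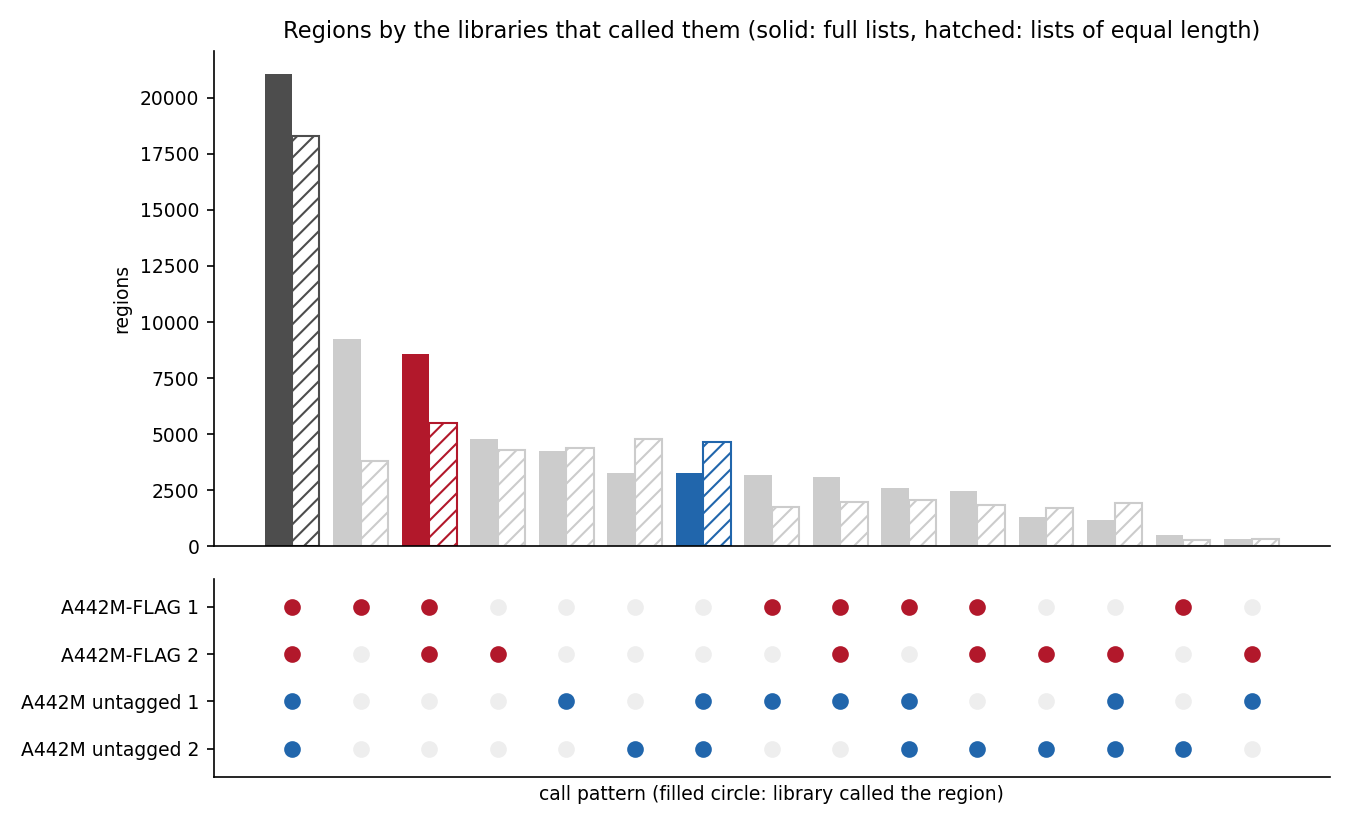
Number of merged regions (bars) for each of the 15 combinations of the 4 A442M libraries that can call a region (filled circles below), with full lists (solid) and lists of equal length (hatched). Tag-only regions (red) number 8587 with full lists and 5505 with equal lists, and untagged-only regions (blue) 3250 and 4639.

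Replicates resembled each other more than libraries of different tag state did. The Jaccard index, the regions both libraries called over those that either called, was 0.604 between the A442M-FLAG replicates and 0.604 between the untagged A442M replicates. Across the tag it was 0.501 for the libraries numbered 1, 0.496 for those numbered 2, and 0.446 and 0.457 for the pairs of unlike number. With equal lists the values were 0.630 within A442M-FLAG, 0.612 within untagged A442M and 0.462 to 0.515 across the tag. The 6 indices share libraries and were not tested.

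The differences lay mostly in the low part of each list. In the highest decile by score, 2.26% and 1.61% of A442M-FLAG peaks had no overlapping peak in either untagged list, against 2.32% and 1.88% of untagged A442M peaks with none in either A442M-FLAG list. In the lowest decile the shares were 63.0% and 59.5% with the tag, against 44.2% and 40.7% without it. In each list the share fell at every step from the lowest decile to the highest. The lowest decile was also where replicates matched least, at 34.7% and 47.6% of A442M-FLAG peaks and 33.6% and 42.4% of untagged A442M peaks. Of the 8587 tag-only regions, 38 ranked at percentile 90 or above in both A442M-FLAG lists, and 43 of the 3250 untagged-only regions did so in both untagged lists.

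**Figure D3:**
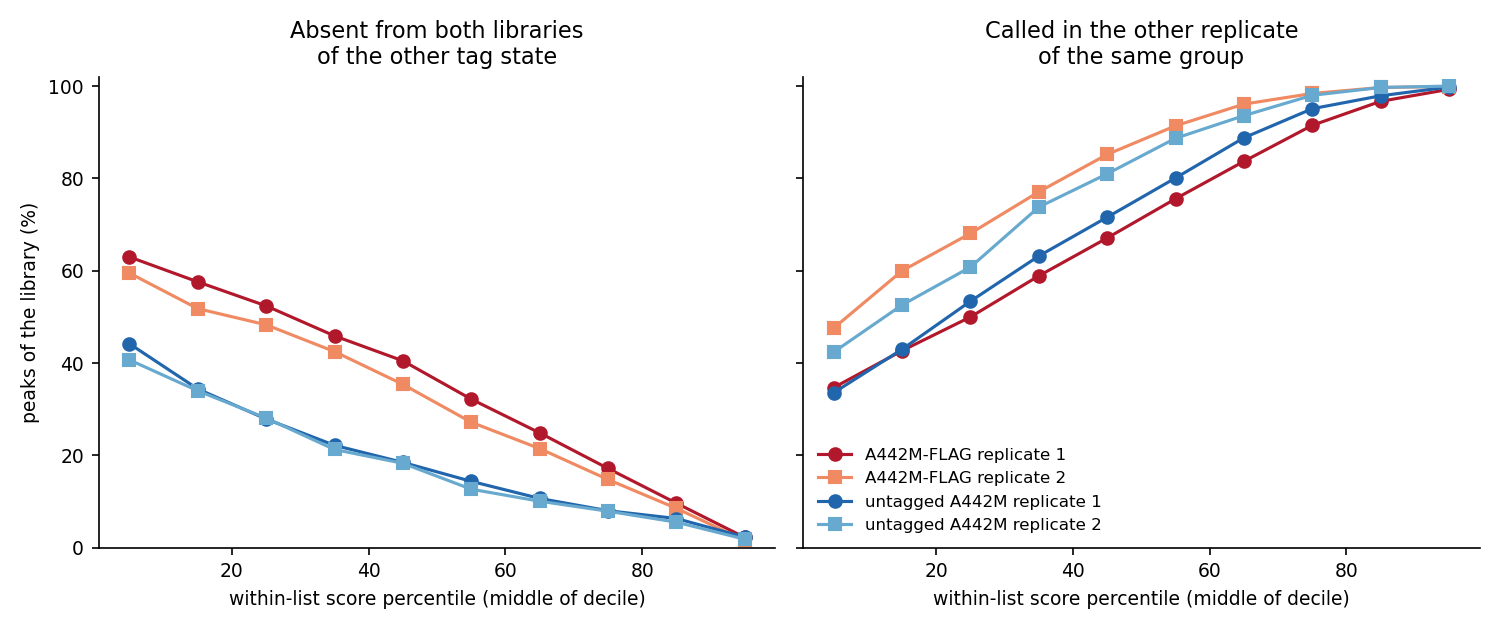
Percent of a library's peaks, by decile of its score (percentile within the list, low to high), that overlap no peak of the other tag state (left) or overlap a peak of its own replicate (right), for the 2 A442M-FLAG and 2 untagged A442M libraries. On the left all 4 lines fall, to between 1.61% and 2.32% in the highest decile, and the A442M-FLAG lines lie above the untagged lines up to percentile 90.

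Where tag-only regions fell relative to genes differed from where untagged-only regions fell. The centre lay in the span of a protein-coding gene for 59.8% of tag-only regions, against 40.6% of untagged-only regions and 51.9% of all 69021. With equal lists the shares were 60.2% and 42.1%. Per library, 53.6% and 54.1% of A442M-FLAG peaks were centred in a gene span, against 49.3% and 49.4% of untagged A442M peaks. The difference of 4.52 percentage points is large beside the SDs of 0.353 and 0.102, and 2 against 2 libraries allow no p below 0.333 (exact permutation test). The same difference was 5.70 points for WT-FLAG against untagged WT, and 0.542 points for G444E-FLAG against untagged G444E. Unplaced contigs moved along the same lines, since the untagged A442M and untagged WT lists were the low ones in gene spans and the high ones in such contigs, and their part in the result was not tested.

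At transcription starts the order was the other way round. A start within 1 kb was found for 142 tag-only regions (1.65%), 127 untagged-only regions (3.91%) and 4.08% of all regions. With equal lists it was 1.04% of tag-only and 4.87% of untagged-only regions. Over regions merged from all 12 lists the order was different in WT, with 3.57% of WT-FLAG-only and 1.36% of untagged-WT-only regions at starts, and in G444E it was 4.46% of G444E-FLAG-only and 2.65% of untagged-G444E-only regions. Per library, 3.71% and 2.59% of A442M-FLAG peaks lay at starts, against 3.96% and 3.14% of untagged A442M peaks. The groups overlapped and the difference was -0.401 percentage points (exact permutation test, p = 0.667). With lists of equal length it was -1.09 points (exact permutation test, p = 0.333), and within 5 kb of a start it was -0.0735 points (p = 1). It became 0.161 without A442M-FLAG replicate 2 and 0.0129 without untagged A442M replicate 1. Starts come from a table that covers 78.5% of protein-coding genes.

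Tag-only regions were 421 bp wide at the median and untagged-only regions 379 bp, against 672 bp for regions of all 4 libraries and 421 bp over all regions. The 21042 shared regions were covered by peaks over a median of 480.5 and 550.0 bp in A442M-FLAG, against 441.0 and 472.0 bp in untagged A442M. The median ratio within a region was 1.10 (0.14 on the log2 scale). Both A442M-FLAG libraries covered more than either untagged library in 7065 shared regions (33.6%), and both covered less in 3383 (16.1%).

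Ranks within shared regions moved about equally often in both directions once lists had the same length. Among 18303 regions called in all 4 cut lists, the lower A442M-FLAG percentile exceeded the higher untagged A442M percentile by 20 points or more in 1400 (7.65%). The reverse held in 1304 (7.12%), and the median difference was -0.692 points. With full lists the counts were 2028 higher and 808 lower with the tag. Regions higher with the tag were 2146 without A442M-FLAG replicate 1, 2724 without untagged A442M replicate 1 and 3081 without untagged A442M replicate 2. Regions lower with the tag were 3092 without A442M-FLAG replicate 1 and 3328 without A442M-FLAG replicate 2. Ranks come from lists whose reads are unknown, so they show order within a list and no change in amount.

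By chromosome, tag-only regions were the more numerous class on each of chromosomes 1 to 22 and on X. Their share of the regions called in 1 tag state only ran between 55.9% on chromosome 21 and 79.5% on chromosome 17. It was 58.0% on X and 60.9% on chromosome 18. Chromosome Y, with 9 regions in all, had 0 tag-only and 5 untagged-only regions. Values for each chromosome were not tested.

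The highest ranked tag-only regions carry the name of the closest protein-coding gene, up to 100 kb away, and whether the gene responds was not measured. PPARD, a nuclear receptor for fatty acids, came first. Its region of 707 bp (hg38, chr6:35435062-35435768) lies 7237 bp outside the gene span and ranked at percentiles 99.2 and 98.9 in A442M-FLAG, with no call in either untagged A442M list. The authors' score there was 226 and 195. Next came SIK2, a salt-inducible kinase (chr11:111592259-111592922, 9858 bp before the start), at percentiles 98.5 and 97.9. KCNQ5, a voltage-gated potassium channel, held the third region inside its span (chr6:72675189-72676193), at percentiles 96.8 and 98.3.

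The remaining 9 of these 12 regions ranked between percentiles 95 and 98.2 in the A442M-FLAG lists. They lay in or near CTDSPL, CREM, CILK1, PXT1, TMEM94, FGF1, COMMD1, RXRA and ATP11B. CTDSPL is a small phosphatase, CREM a cAMP-responsive transcription factor and CILK1 a kinase of cilia. FGF1 is a growth factor, COMMD1 a regulator of copper transport and NF-kB, RXRA the retinoid X receptor and ATP11B a phospholipid flippase. The RXRA region (chr9:134356796-134357420) ranked at percentiles 98.2 and 95.1. PPARD and RXRA encode nuclear receptors that are known to bind DNA as a dimer. None of the 12 regions was called in an untagged WT list, and all 12 were called in both WT-FLAG lists. Beyond that, 6 of them were called in both G444E-FLAG and both untagged G444E lists.

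Among untagged-only regions, RELN came first, the gene of reelin, a secreted protein of neuronal migration. Its region (chr7:103658617-103659004) lies inside the gene span and ranked at percentiles 98.2 and 98.3 in untagged A442M, with no call in either A442M-FLAG list. GNA15, a G protein alpha subunit, and IKZF3, a zinc-finger factor of lymphocytes, held regions inside their spans. They ranked at percentiles 98.3 and 97.3 and at 98.7 and 96.2 in the untagged A442M lists. SHH, the sonic hedgehog morphogen, had a region 85662 bp from its span at percentiles 95.9 and 96.0, and NR5A2, a nuclear receptor, had a region inside its span at 95.7 and 96.1. The other 3 of these 8 regions had no protein-coding gene within 100 kb. All 8 were called in both untagged WT lists and in G444E-FLAG replicate 1. All but the NR5A2 region were also called in WT-FLAG replicate 1 and in both untagged G444E lists. WT-FLAG replicate 2 called only that at chr4:54525677-54526081, and G444E-FLAG replicate 2 only that at chr6:148064024-148065630.

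Shared regions were named by the largest gap in rank between the groups. NF1, a negative regulator of Ras, held a region inside its span (chr17:31349327-31350177) at percentiles 90.7 and 93.4 in A442M-FLAG, against 12 and 8.31 in untagged A442M. DAG1, which encodes dystroglycan, held another (chr3:49512890-49514205) at 94.3 and 97.0 with the tag, against 16.9 and 18.4 without it. FAM222B, TNFRSF19, MLIP and OTOGL followed, at 88.6 to 98.4 with the tag and 7.23 to 19.8 without it. On the opposite side stood IER2, an immediate early gene, with a region (chr19:13172461-13172839) at 3.19 and 4.93 with the tag, against 91.2 and 86.0 without it. A second RELN region (chr7:103718680-103719409) ranked at 5.57 and 8.53 with the tag, against 90.3 and 88.6 without it. RNF125, ST3GAL1, PHB1 and a region with no gene within 100 kb made up the rest, at 1.42 to 14.2 with the tag and 74.7 to 89.4 without it. These percentiles come from lists of equal length. None of the 6 regions that ranked higher with the tag was called in untagged WT. All 6 were called in both WT-FLAG lists, both G444E-FLAG lists and untagged G444E replicate 1. The 6 that ranked lower were called in both untagged WT lists, and also in both WT-FLAG and both G444E-FLAG lists.

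The 8 libraries of the other genotypes, which took no part in the definition, called the classes to different extents. WT-FLAG replicates 1 and 2 called 42.8% and 39.4% of the tag-only regions, against 1.74% and 1.22% in untagged WT. G444E-FLAG called 31.1% and 21.8% of them, against 14.8% and 12.6% in untagged G444E. Of the untagged-only regions, WT-FLAG called 37.5% and 29.0%, against 74.4% and 71.1% in untagged WT. In G444E-FLAG the shares were 37.2% and 21.9%, against 33.4% and 28.1% in untagged G444E. Over all 78999 regions merged from the 12 lists, those with no A442M call included, WT-FLAG called 53.2% and 46.2%, against 35.4% and 31.1% in untagged WT. G444E-FLAG called 49.4% and 37.5% of them, against 38.3% and 33.3% in untagged G444E. The share of tag-only regions lay below the share of all regions in each of the 8 libraries and was lowest in untagged WT. The share of untagged-only regions lay above that of all regions in both untagged WT libraries and below it in the other 6. These differences were not tested. For the regions of all 4 A442M libraries the shares were 95.2% and 93.8% in WT-FLAG, against 72.0% and 68.4% in untagged WT. The untagged WT and untagged A442M libraries are those with the most peaks on unplaced contigs, and any processing that they share cannot be told apart from the lack of the tag.

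**Figure D4:**
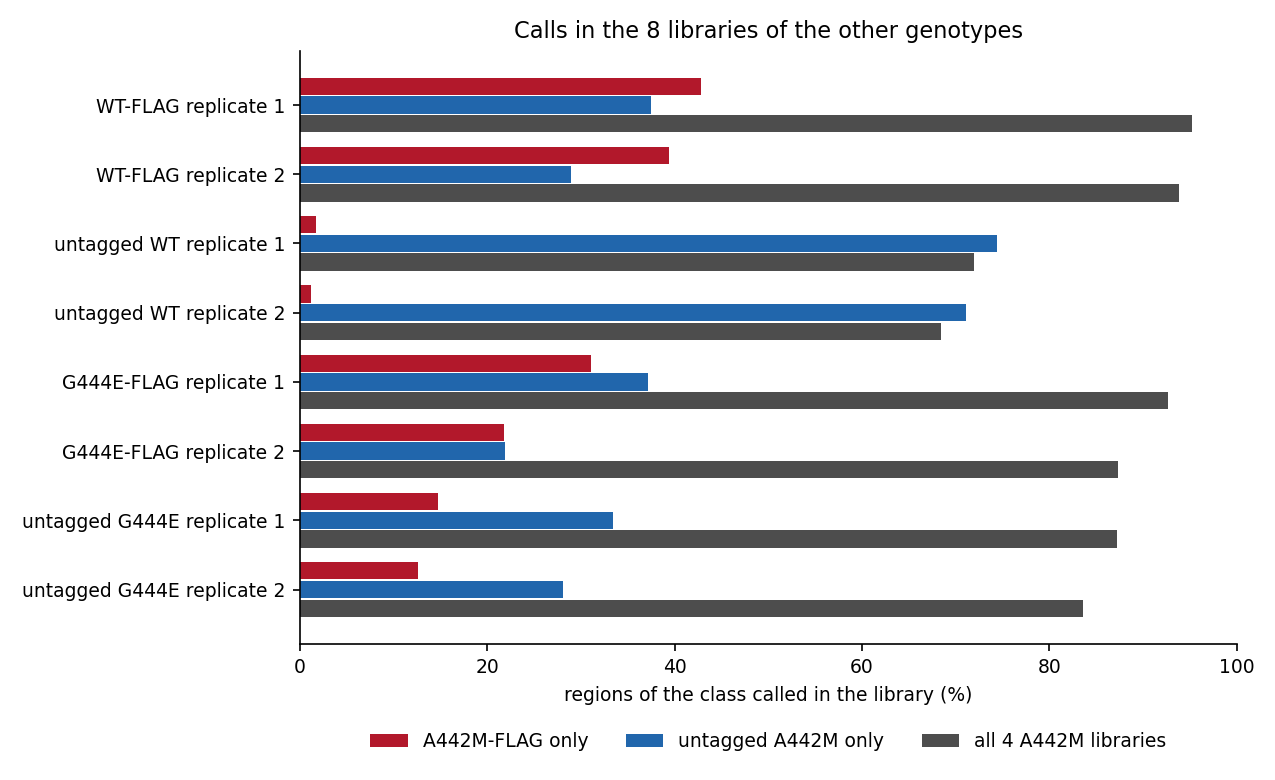
Percent of the tag-only (red), untagged-only (blue) and shared (grey) A442M regions that each of the 8 libraries of the other genotypes called, WT-FLAG and untagged WT above, G444E-FLAG and untagged G444E below. Untagged WT called 1.74% and 1.22% of tag-only regions and 74.4% and 71.1% of untagged-only regions, while the G444E libraries differed less by tag.

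Regions gained with the tag in A442M were compared with those gained in the other genotypes, over regions merged from all 12 lists. Of 8512 tag-only A442M regions, 2077 were also called in both WT-FLAG and neither untagged WT library, which is 24.4% of the A442M regions and 21.4% of the 9709 WT ones. Those 9709 are 12.3% of all 78999 regions. The opposite pattern in WT was seen for 3. For G444E the overlap was 389 regions, 4.57% of the A442M regions and 22.5% of the 1728 G444E ones, with 31 of opposite pattern. Those 1728 are 2.19% of all regions. Untagged-only regions overlapped in 967 cases with WT, 30.1% of 3208 and 38.6% of 2507, and in 61 cases with G444E, 1.90% of 3208 and 18.0% of 339. The untagged-only regions of WT and G444E are 3.17% and 0.429% of all regions. The comparisons share no library.

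Some tag-only A442M regions were called in none of the other 8 libraries. They numbered 3159, 37.1% of the 8512. Among the highest was a region in SYNPO2, which encodes an actin-binding protein, at percentiles 87.8 and 91.0. A region in USP53 ranked at 86.2 and 84.9. A tag-only A442M region called in all other 8 libraries was found in 5 cases (0.0587%), near TIPRL, MRPS18A, SRRM2 and POLR3C among the highest. The TIPRL region ranked at 80.7 and 86.8. Of untagged-only regions, 245 were called in no other library, with the highest near LOC124904394 at 74.8 and 64.2, then near SLC14A1 and KLF3 at 55.6 to 58.1. In the other direction, 170 untagged-only regions (5.30%) were called in all other 8 libraries, against 52.3% of regions of all 4 A442M libraries. The highest of the 170 was in SLIT3, an axon guidance ligand, at 96.8 and 94.9. Next came a region with no gene within 100 kb (chr18:2244441-2245187) at 95.6 and 94.8, then a region in GSG1L at 94.6 and 95.7.

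Genes with many tag-only regions within 50 kb were large. CAST, which encodes calpastatin, the inhibitor of calpain proteases, had 19 tag-only and 0 untagged-only regions among 63, over a span of 813 kb, with 21 called in all 4 libraries. SBF2, a myotubularin-related protein, had 14 tag-only regions, EXT1, an enzyme of heparan sulfate synthesis, 13, and ARHGAP26, a GTPase-activating protein, and MKLN1, muskelin, 12 each. Untagged-only regions were 1 at SBF2, 0 at EXT1, and 1 each at ARHGAP26 and MKLN1. KCNIP4, a partner of potassium channels, led the opposite side with 2 tag-only and 9 untagged-only regions over 1220 kb. ADAMTSL1 had 4 tag-only and 6 untagged-only regions, and AKAP6, an anchor of protein kinase A, 0 and 6. With equal lists CAST had 11 tag-only and 0 untagged-only regions, and KCNIP4 had 0 and 10.

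**Figure D5:**
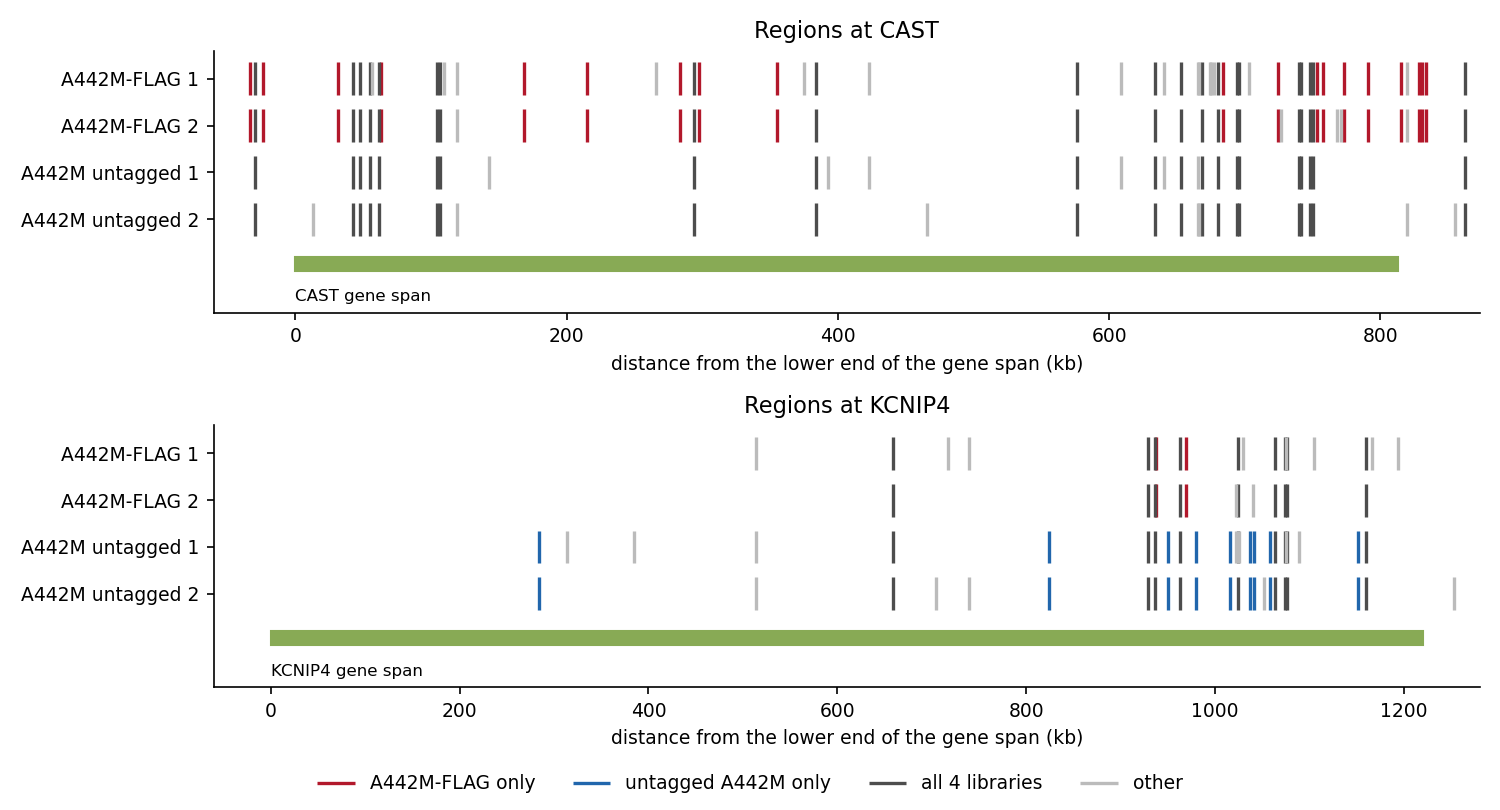
Centres of merged regions (ticks) in the 2 A442M-FLAG and 2 untagged A442M libraries at CAST and KCNIP4, by distance in kb from the lower end of the gene span (green bar). Red ticks, called only with the tag, number 19 at CAST and 2 at KCNIP4, and blue ticks, called only without it, number 0 and 9.

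At GATA3 itself, 7 regions lay within 50 kb of the gene span. A region inside the span (chr10:8070707-8072097) was called in all 4 libraries, at percentiles 27.5 and 42.2 in A442M-FLAG, against 72.3 and 56.5 in untagged A442M, and in all other 8. The groups did not overlap there. Of the other 6 regions, that at chr10:8122920-8123436 was called only with the tag, at 25.7 and 10.3, and none was called only in both untagged libraries.

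Gene lists were described by how many members had a tag-only or an untagged-only region within 50 kb. Over all 20037 protein-coding genes the shares were 36.2% with a tag-only and 14.5% with an untagged-only region, and 26.6% and 20.9% with equal lists. Genes with more regions have more chances of either kind, and the median number of regions per gene was 4. Integrins and laminins, the receptors and basement membrane proteins of cell adhesion, had tag-only regions at 14 of 18 members and untagged-only regions at 7, with a median of 15 regions each. With equal lists it was 8 and 9 of 18. LAMA3, a laminin chain, had 5 tag-only and 0 untagged-only regions, and ITGA2 1 of each. ITGB6 had 1 and 0.

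Hippo pathway targets, genes of or under YAP and TEAD factors, had tag-only regions at 16 of 22 members and untagged-only regions at 4. These shares are 72.7% and 18.2%, against 36.2% and 14.5% of all protein-coding genes. The members had a median of 13.5 regions each, against 4 over all protein-coding genes. CRIM1, a regulator of BMP signalling, had 10 tag-only and 0 untagged-only regions, PTPN14, a phosphatase that restrains YAP, 9 and 0, and ASAP1 3 and 3. With equal lists 15 of 22 had a tag-only and 10 an untagged-only region, and CRIM1 and PTPN14 had 7 and 8 tag-only regions and 0 of the other kind. The TGF-beta pathway had tag-only regions at 11 of 15 members and untagged-only regions at 3. SMAD3, a signal transducer of that pathway, had 5 and 2, TGFBR2, a receptor, 4 and 1, and TGFBR3 3 and 0. With equal lists it was 9 and 7 of the 15 members.

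Markers of luminal epithelium had tag-only regions at 11 of 24 members (45.8%) and untagged-only regions at 2 (8.33%). Over all protein-coding genes the shares were 36.2% and 14.5%. The luminal members had a median of 6 regions each, against 4 over all protein-coding genes. EHF, an epithelial ETS factor, had 4 and 0, and CDH1, E-cadherin, and KRT7, a simple-epithelial keratin, 2 and 0 each. With equal lists 9 of the 24 had a tag-only and 5 an untagged-only region (37.5% and 20.8%), against 26.6% and 20.9% of all protein-coding genes. Basal epithelial genes had 10 and 4 of 16, with a median of 10 regions each, and with equal lists it was 6 and 4. EGFR had 2 and 0, ITGA6 1 and 0 and CAV1 0 and 1. Mesenchymal genes had 8 and 5 of 18 (44.4% and 27.8%), with a median of 7 regions each. CDH2, N-cadherin, had 3 and 2, and TNC and COL1A1 had 1 and 3 tag-only regions and 0 untagged-only ones. The GATA family and its cofactors had 5 and 3 of 13 (38.5% and 23.1%), with a median of 5 regions each, and RUNX1, a GATA partner in blood cells, had 6 and 3. With equal lists 4 of these 13 had a tag-only and 8 an untagged-only region, so the order of these counts turned with list length. It turned likewise for mesenchymal genes, at 6 tag-only and 8 untagged-only of 18. ZFPM2 had 2 and 1 and TRPS1 0 and 1. None of these shares was tested against that of all protein-coding genes.

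In the remaining lists, with full peak lists, tag-only and untagged-only regions were found at 3 and 3 of 10 AP-1 genes, 10 and 3 of 18 ubiquitin and proteasome genes, 7 and 1 of 17 cell cycle genes, 4 and 2 of 16 interferon genes and 7 and 2 of 14 housekeeping genes. FBXW7, a substrate receptor of a ubiquitin ligase, had 6 and 0, and CDK6, a cyclin-dependent kinase, 4 and 0. Lists for cell types other than this line gave 7 and 4 of 16 T cell, 6 and 0 of 17 erythroid, 1 and 2 of 15 neuronal and 3 and 0 of 15 muscle genes. Across these remaining lists the tag-only shares ran from 6.67% (neuronal) to 55.6% (ubiquitin and proteasome), against 36.2% of all protein-coding genes. The untagged-only shares ran from 0% (erythroid and muscle) to 30.0% (AP-1), against 14.5%. With equal lists the counts were 3 and 4 for AP-1, 6 and 5 for ubiquitin and proteasome, 4 and 4 for cell cycle, 4 and 2 for interferon and 5 and 2 for housekeeping genes. They were 3 and 5 for T cell, 5 and 2 for erythroid, 0 and 3 for neuronal and 3 and 2 for muscle genes. The tag-only shares then ran from 0% (neuronal) to 35.7% (housekeeping), against 26.6% of all protein-coding genes. The untagged-only shares ran from 11.8% (erythroid) to 40.0% (AP-1), against 20.9%. None of these shares was tested. The erythroid, neuronal and muscle genes had a median of 1 region each, against 4 over all protein-coding genes. IL7R, a cytokine receptor of T cells, had 3 and 0, and TTN, the gene of titin, 5 and 0.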

How the data were processed

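GATA3 ChIP-seq peak lists of 12 libraries in 6 groups were used, and the comparison rests on the 4 A442M lists. The submitters' processing notes name hg38 as the build, and FastQC and MACS2 2.1.4 as tools. For the aligner, the control and the depth, nothing is given in the sources used here. On filters, the only statement is that the lists are named as 5-fold peaks, without saying 5-fold of what. Each list holds 1 library's peaks in 5 columns without a header (chromosome, start, end, name and score). The deposited score is the authors' own and its scale is unnamed. It was at least 5.00 in each of the 4 lists and served to rank and filter peaks inside a list, never between lists. Peak numbers in the names have gaps, with 90.7% to 92.0% of numbers present in the 4 lists, so some peaks were removed before deposit. Whether the 5-fold cut in the list names accounts for all the gaps was not tested.

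Peaks were merged at 1 bp overlap with Python 3.11.15, numpy 2.4.6 and pandas 2.3.3, in a script tested on simulated data. Coordinates are 1-based. A percentile is a peak's rank by score within its list, and a region takes the highest score in it. Values per library were tested with two-sided exact permutation tests, enumerating 6 arrangements (2 against 2) or 216 (genotype by tag). Counts of regions carry no test. Gene spans and start windows come from RefSeq tables of GRCh38.p14, which give no exons, so positions are given as inside or outside a gene span. Windows were present for 15724 of 20037 protein-coding genes.

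Regions were named by the nearest gene within 100 kb: the 12 highest tag-only and 8 highest untagged-only regions by the lower percentile of the pair, the 4 highest of each kind called in none and in all of the other 8 libraries, the 6 shared regions with the largest gap in each direction, the 5 and 3 genes with the most tag-only and untagged-only regions, regions within 50 kb of GATA3, and up to 3 members per gene list with the most regions. Names outside this rule are marked. Of the regions so chosen, 2 are left out of the text. The libraries, the 16 gene lists and the tests were chosen with earlier results of these data known.

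The labels number replicates 1 and 2 in each group and do not say what a number shares. The correlation of the difference between replicates 1 and 2 across regions lay between 0.113 and 0.290 over the 15 pairs of groups, and was 0.163 for A442M-FLAG with untagged A442M. On that ground, from the data alone, same-number libraries were treated as pairs in values given by number. They were also paired in alternative tests with a replicate block, where labels are exchanged only between libraries of the same number. The main tests did not pair libraries. Alternatives were lists of equal length, a score of at least 10, 50% cover of a region, main chromosomes only, leaving out each replicate, and other windows. The share of peaks in gene spans and the distance to gene span ends were added after the data were seen.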

Additional observations from a re-analysis of the deposited data

Results flagged for a closer look

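The share of peaks at protein-coding starts moved in opposite directions with the tag in different genotypes. A442M-FLAG minus untagged A442M was -0.401 percentage points, WT-FLAG minus untagged WT was 1.26 and G444E-FLAG minus untagged G444E was 0.595, and the sign was the same in both same-number pairs of each genotype. Tagged and untagged libraries overlapped in each genotype (exact permutation test, p = 0.667 in each). The share also went with the replicate number. It was higher in replicate 1 in all 6 groups, as in A442M-FLAG (3.71% and 2.59%) and G444E-FLAG (5.29% and 3.40%). The difference between A442M and the mean of the other genotypes gave p = 0.213 in the exact permutation test over 216 arrangements, so it did not pass 0.05. Measured to gene span ends in place of starts, the differences were -0.239 points in A442M, 1.48 in WT and 0.609 in G444E. The difference between genotypes at span ends was not tested.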

How the results depend on the processing

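With lists of equal length, tag-only regions were 5505, untagged-only members of the gene lists were 78 against 43 with full lists, and motif shares were 45.6% for tag-only and 45.3% for shared regions. The share of tag-only A442M regions also tag-only in WT was 28.0% with equal lists and 25.7% at a score of at least 10, and in G444E 4.00% with equal lists. With 50% cover required, regions of all 4 libraries were 13496. A gap of 10 points gave 2682 higher and 2634 lower shared regions, and full lists gave 808 lower. Within 10 kb, 64 list members had a tag-only region, against 119 within 50 kb, and 28 an untagged-only one, against 43.

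Leaving out each replicate gave 11060 to 18161 tag-only, 4424 to 7560 untagged-only and 22221 to 24154 shared regions, 1962 to 3081 regions higher and 1942 to 3328 lower in rank with the tag, median width differences of -19.5 to 63.5 bp and start share differences of -0.962 to 0.161 percentage points. The width difference reversed without A442M-FLAG replicate 2 (-19.5 bp), and the start share reversed without A442M-FLAG replicate 2 (0.161) and without untagged A442M replicate 1 (0.0129).

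With the replicate block, p was 0.5 for peak number, the smallest that 4 arrangements allow (exact permutation test). Within number 1 the tag-only count was 20764 and the untagged-only count 9009, and within number 2 they were 16790 and 9611. A count within a number needs 1 call in place of 2, so it is larger by construction. For 2 against 2 libraries no p can pass 0.05 with or without the block, and the tests between genotypes passed it in neither. Of 36 named regions called in 1 tag state only, 36 kept their calls with equal lists, 36 at a score of at least 10 and 32 with 50% cover. The counts with equal lists and with the score cut were fixed in advance. Both cuts remove only low-scored peaks, and every named region ranked above them, so these counts are no measure of stability. Causes of the other movements were not tested. Unknown read depth limits every comparison of list length, and 2 libraries per group limit every p-value.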
